A study of Homo sapiens with 6 samples.

Results

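Aminoacyl-tRNA synthetases were examined in Molm13-Cas9+ cells after CRISPR targeting of COX4I1, a subunit of Complex IV of the respiratory chain. Members were taken from the count table by gene symbol, namely every symbol of the synthetase naming pattern together with EPRS, FARSA, FARSB, FARS2, TARSL2 and the scaffold genes AIMP1, AIMP2 and EEF1E1. This gave 41 genes of the 19845 in the table, of which 21 encode cytosolic enzymes, 17 encode mitochondrial enzymes and 3 encode scaffold proteins, and all 41 passed the filter on low counts. The table carries the older symbols, so AARS, EPRS or WARS here are the genes now called AARS1, EPRS1 and WARS1. GARS and KARS were counted as cytosolic, although each also supplies the mitochondrial enzyme.

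Molm13 is a human acute myeloid leukemia line with an MLL rearrangement, and the cells of both groups stably expressed Cas9, received a guide in the ipUSEPR vector by lentiviral infection and were selected in puromycin. The groups compared were sgCtrl and sgCOX4I1, with 3 libraries each, and each library of a group carried a different guide. Which guide sequence belongs to which number, and the time between transduction and harvest, are not given in the sources used here. No cloning of cells is described, so each library is taken as a pool of transduced cells in which edited and unedited genes were read together. Values of the libraries of a group are given in the order #1, #2 and #3 throughout. Because of this design, the spread within a group includes differences between guides.

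The libraries held 17241014 to 30861943 counts each. COX4I1 mRNA was 513, 502 and 463 CPM (deposited counts scaled to library size with TMM factors) in sgCtrl #1, #2 and #3, against 132, 378 and 133 CPM in sgCOX4I1 #1, #2 and #3, so sgCOX4I1 #2 kept 76.7% of the sgCtrl mean. The log2 fold change was -1.21 (SE 0.29, Benjamini-Hochberg adjusted p = 0.0512 by the quasi-likelihood test of edgeR), and a two-sided exact permutation test gave p = 0.1, the smallest value that 3 libraries against 3 allow. Every one of the 10 myeloid markers checked was above 1 CPM in each library, while HBB, EPCAM and ALB had no counts. Among the 9 markers of other cells, PECAM1, which myeloid cells also express, made up most of a summed level of 172 to 200 CPM in sgCtrl and 187 to 222 CPM in sgCOX4I1. The summed myeloid markers were 2466 to 3420 CPM in sgCtrl and 3134 to 4244 CPM in sgCOX4I1, with LYZ at 1149 to 2100 against 2026 to 3104 CPM and MPO at 219 to 235 against 105 to 117 CPM, and their part in the synthetase values was not tested. In bulk RNA, a change in the share of cells that express a gene and a change in RNA per cell cannot be told apart.

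Aminoacyl-tRNA synthetases join each amino acid to its tRNA, the step that fixes the genetic code. The cytosol and the mitochondrion use largely separate enzymes, and the mitochondrial set is encoded in the nucleus and serves the translation of the respiratory chain subunits made inside the organelle, Complex IV subunits among them. In the cytosol, several synthetases assemble with AIMP1, AIMP2 and EEF1E1 into the multisynthetase complex. When a tRNA stays uncharged or mitochondria are stressed, phosphorylation of eIF2 raises translation of the transcription factor ATF4, which binds C/EBP-ATF response elements and activates amino acid uptake, amino acid synthesis and many cytosolic synthetase genes.

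The promoter windows of the synthetases were therefore read for the core of that element, TGATGNAA, on both strands. The windows come from RefSeq on GRCh38.p14, run from 250 bases before to 50 bases after each annotated start, and were found for 33 of the 41 members. Of the cytosolic enzymes, 7 of 16 (43.8%) held the core, against 1 of 14 (7.14%) mitochondrial enzymes, none of the 3 scaffold genes, 6 of 19 (31.6%) in a list of ATF4 amino acid response genes and 1217 of 27305 genes (4.46%) in the whole promoter table. Each match below is given with the surrounding 30 bases, 5′ to 3′ on the strand of the gene, with the core in capitals, because these windows show how alike the cytosolic matches were. The first 7 are cytosolic enzymes, YARS2 is the mitochondrial one, and CHAC1 and ASNS, classic ATF4 targets, are shown for comparison.
AARS (chr16:70289675-70289704, minus strand): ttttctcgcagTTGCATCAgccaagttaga
CARS (chr11:3057407-3057436, minus strand): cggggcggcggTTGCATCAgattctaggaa
GARS (chr7:30594834-30594863, plus strand): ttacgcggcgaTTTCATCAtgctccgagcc
IARS (chr9:92293692-92293721, minus strand): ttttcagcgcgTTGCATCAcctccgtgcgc
MARS (chr12:57488053-57488082, plus strand): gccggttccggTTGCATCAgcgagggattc
NARS (chr18:57621804-57621833, minus strand): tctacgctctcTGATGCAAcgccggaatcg
TARS (chr5:33440956-33440985, plus strand): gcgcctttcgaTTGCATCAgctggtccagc
YARS2 (chr12:32756076-32756105, minus strand): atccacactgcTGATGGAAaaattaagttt
CHAC1 (chr15:40953251-40953280, plus strand): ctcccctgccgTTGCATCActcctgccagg
ASNS (chr7:97872458-97872487, minus strand): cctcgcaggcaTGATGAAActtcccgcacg

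The same 8 letters, TTGCATCA or their reverse complement TGATGCAA, stood in 6 of the 7 cytosolic matches, and only GARS had another base in the free position. This exact form was found in 6 of 16 cytosolic windows (37.5%), in none of 14 mitochondrial windows, in 2 of 19 genes of the ATF4 list and in 295 of 27305 genes (1.08%), a search added after the windows had been seen. CHAC1 carries the same letters. The cores lay close to the annotated start in most of these genes. They began 2, 4, 13 and 33 bases before it in CARS, MARS, IARS and GARS, and 2 and 14 bases after it in TARS and NARS, whereas those of AARS and YARS2 began 187 and 197 bases before it. A match is a description of the letters in the window and does not show that a factor binds there.

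Across all genes, edgeR's quasi-likelihood test called 247 of the 11861 genes tested (2.08%) at an adjusted p under 0.05. Of the 41 synthetase and scaffold genes, 1 was called, which is 2.44%, and it was MARS2, the mitochondrial methionyl-tRNA synthetase, which was higher. Over all genes 1.06% were called higher and 1.02% lower, and no member was called lower. No member reached a 2-fold change, whatever its p, as 112 of the 11861 genes tested did. With an adjusted p under 0.05 as well, 0.202% of all genes did. Before adjustment, 10 members (24.4%) had p under 0.05, all of them higher in sgCOX4I1, where the share of all genes with such a p and a higher level was 8.9%.

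Small positive differences were common among the members. The log2 fold change was above 0 for 33 of 41, against 49.4% of all genes, and its median was 0.12, against -0.0023 over all genes. Single values ran from -0.09 to 0.64, with SEs of 0.07 to 0.23. All 3 sgCOX4I1 libraries lay above all 3 sgCtrl libraries for 15 of 41 members (36.6%), against 11.2% of all genes, and below them for none, against 10.4%. All members were read in the same 6 libraries, so these counts describe the group and carry no test.

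**Figure D1:**
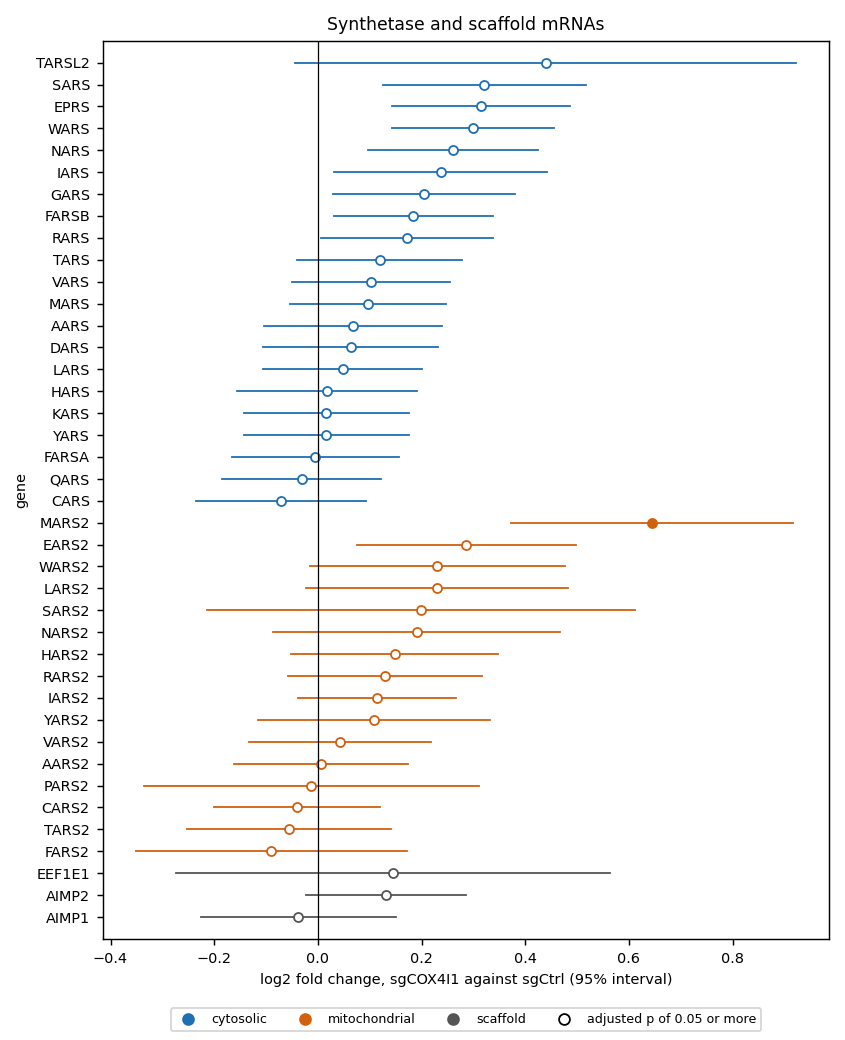
Log2 fold change of synthetase and scaffold mRNAs in sgCOX4I1 against sgCtrl (x axis) with its 95% interval from edgeR, ordered by size within the cytosolic (blue), mitochondrial (orange) and scaffold (grey) genes, filled where the adjusted p was under 0.05. Only MARS2, at 0.64, is filled, and most points lie to the right of 0.

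Among the 21 cytosolic enzymes, 18 had a log2 fold change above 0, and the median was 0.10. The groups did not overlap for 9 (42.9%), in each case with sgCOX4I1 above, against 11.2% of all genes. None was called by edgeR, which called 2.08% of all genes. An unadjusted p under 0.05 with a higher level was found for 8 of these enzymes (38.1%), against 8.9% of all genes. DESeq2 called 4 of them, WARS, EPRS, SARS and NARS, where it called 3.93% of all genes, and limma-voom called 2, WARS and EPRS, where it called 2.12%. Without sgCtrl #1, which stood closest to the sgCOX4I1 libraries, edgeR called the same 4 as DESeq2 and 4.66% of all genes. The smallest adjusted p belonged to the enzymes for tryptophan, glutamate and proline, serine, and asparagine.

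WARS, the tryptophanyl-tRNA synthetase, was 217, 199 and 214 CPM in sgCtrl #1, #2 and #3, against 252, 272 and 252 CPM in sgCOX4I1 #1, #2 and #3. The groups did not overlap, and sgCOX4I1 #2 was the highest. The log2 fold change was 0.30 (SE 0.073, Benjamini-Hochberg adjusted p = 0.0512 by the quasi-likelihood test of edgeR). Some reads of WARS could belong to genes on the opposite strand, which cover 10.6% of its exonic bases, as the strand setting of the counting is not given in the sources used here.

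EPRS encodes a single fused protein that charges both glutamate and proline in the cytosol and belongs to the multisynthetase complex. Its mRNA was 388, 334 and 340 CPM in the sgCtrl libraries and 451, 446 and 425 CPM in the sgCOX4I1 libraries. Each sgCOX4I1 library was above the highest sgCtrl library, sgCtrl #1. The log2 fold change was 0.31 (SE 0.08, adjusted p = 0.0589 by the same edgeR test).

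SARS, the seryl-tRNA synthetase, was 64.2, 53.4 and 52.8 CPM in sgCtrl libraries, against 72.4, 74.5 and 66.1 CPM in sgCOX4I1. Its lowest sgCOX4I1 value, in #3, stood just above the highest sgCtrl value, in #1, and the log2 fold change was 0.32 (SE 0.091, adjusted p = 0.0871 by edgeR). NARS, the asparaginyl-tRNA synthetase, was 207, 183 and 187 CPM in sgCtrl libraries, against 242, 225 and 223 CPM in sgCOX4I1. Here too sgCtrl #1 was the highest control without reaching the sgCOX4I1 libraries, and the log2 fold change was 0.26 (SE 0.076, adjusted p = 0.0943 by edgeR). NARS uses the amino acid that ASNS makes, and both promoters held the core shown above.

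The next cytosolic enzymes differed by less. FARSB and FARSA encode the subunits of the phenylalanyl-tRNA synthetase, and their values are given together. FARSB was 74.6, 71.9 and 71.3 CPM in sgCtrl libraries, against 85.0, 80.3 and 82.1 CPM in sgCOX4I1, without overlap, a log2 fold change of 0.18 (SE 0.071, adjusted p = 0.200 by edgeR). FARSA, the most abundant synthetase mRNA per length, had a log2 fold change of -0.0047 (SE 0.075), with group means of 369 and 368 CPM. RARS, for arginine, was 70.5, 69.4 and 65.8 CPM in sgCtrl libraries, against 82.7, 75.5 and 73.5 CPM in sgCOX4I1, again without overlap, a log2 fold change of 0.17 (SE 0.077, adjusted p = 0.267 by edgeR).

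GARS and IARS, for glycine and isoleucine, had similar differences with overlapping groups. GARS was 232, 199 and 201 CPM in sgCtrl libraries, against 260, 240 and 229 CPM in sgCOX4I1 (log2 fold change 0.20, SE 0.082, adjusted p = 0.213 by edgeR). IARS was 199, 171 and 169 CPM in sgCtrl libraries, against 241, 190 and 205 CPM in sgCOX4I1 (log2 fold change 0.24, SE 0.096, adjusted p = 0.215 by edgeR). For both genes it was sgCtrl #1 that reached into the range of the sgCOX4I1 libraries. KARS, for lysine, the other gene that serves both compartments, was 247, 218 and 232 CPM in sgCtrl libraries, against 235, 244 and 226 CPM in sgCOX4I1, with a log2 fold change of 0.017 (SE 0.074), and its pseudogenes could have split some of its reads.

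TARSL2 and TARS both charge threonine in the cytosol. TARSL2 had the largest cytosolic log2 fold change, 0.44, with the widest error (SE 0.23, adjusted p = 0.339 by edgeR), and was the least abundant cytosolic member. It was 3.65, 2.5 and 3.73 CPM in sgCtrl libraries, against 4.32, 5.41 and 3.84 CPM in sgCOX4I1, so that sgCOX4I1 #3 was barely above the highest control. TARS was 279, 245 and 257 CPM in sgCtrl libraries, against 286, 287 and 276 CPM in sgCOX4I1 with overlap (log2 fold change 0.12, SE 0.074, adjusted p = 0.439 by edgeR).

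VARS and MARS, for valine and methionine, were among the abundant enzymes with small differences and no overlap. VARS was 410, 411 and 392 CPM in sgCtrl libraries, against 428, 441 and 433 CPM in sgCOX4I1 (log2 fold change 0.10, SE 0.071, adjusted p = 0.493 by edgeR). MARS was 296, 315 and 306 CPM in sgCtrl libraries, against 334, 328 and 318 CPM in sgCOX4I1 (log2 fold change 0.097, SE 0.07, adjusted p = 0.516 by edgeR). At 12.4% of its exonic bases MARS overlaps ARHGAP9 and DDIT3 on the opposite strand. The 7 remaining cytosolic enzymes, AARS, CARS, DARS, HARS, LARS, QARS and YARS, had overlapping groups and log2 fold changes from -0.071 for CARS to 0.068 for AARS.

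Cytosolic enzymes inside and outside the multisynthetase complex were also counted apart, with no test between them. In all those without overlap the sgCOX4I1 libraries lay above, as they did for 11.2% of all genes. Of the 8 enzymes in the complex, 7 had a log2 fold change above 0, 3 did not overlap and the median was 0.08. Of the 13 outside, 11 were above 0, 6 did not overlap and the median was 0.12. Synthetases also fall into classes I and II by the fold of their catalytic domain. EPRS combines both and was put in neither. The median was 0.097 for the 9 cytosolic enzymes of class I and 0.12 for the 11 of class II, with 4 that did not overlap in each class.

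Of the 17 mitochondrial enzymes, 13 had a log2 fold change above 0, with a median of 0.13. The groups did not overlap for 5 (29.4%), all with sgCOX4I1 above, against 11.2% of all genes. Only MARS2 was called, which is 5.88% of these enzymes, where 2.08% of all genes were called and 1.06% were called higher. An unadjusted p under 0.05 with a higher level was found for 2 (11.8%), near the 8.9% of all genes. The 5 genes without overlap, MARS2, EARS2, WARS2, IARS2 and RARS2, all encode class I enzymes. Of the 9 mitochondrial enzymes of class I, 8 were above 0 with a median of 0.13, and of the 8 of class II, 5 were above 0 with a median of 0.068 and every pair of groups overlapped. The classes were not tested against each other.

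MARS2 attaches methionine to the mitochondrial methionine tRNA, which serves both the start and the elongation of mitochondrial proteins. It was 25.3, 23.7 and 17.4 CPM in sgCtrl #1, #2 and #3, against 37.6, 33.4 and 32.9 CPM in sgCOX4I1 #1, #2 and #3. The sgCOX4I1 libraries were close together and all above the controls, of which sgCtrl #3 was the lowest. MARS2 rose 1.56-fold (95% interval 1.29 to 1.89), a log2 fold change of 0.64 (SE 0.13, Benjamini-Hochberg adjusted p = 0.0212 by the quasi-likelihood test of edgeR). The call was lost without sgCtrl #2 (log2 fold change 0.70, adjusted p = 0.134) and without sgCOX4I1 #2 (log2 fold change 0.67, adjusted p = 0.0941), both by the same edgeR test. In GRCh38 (GENCODE 44), MARS2 is a gene of 1 exon of 3027 bases (chr2:197705369-197708395, plus strand), and no other annotated gene overlaps its exon.

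EARS2, which charges glutamate in mitochondria and so also begins the route to glutaminyl-tRNA there, was 25.7, 24.7 and 28.9 CPM in sgCtrl libraries, against 33.2, 33.9 and 29.7 CPM in sgCOX4I1. The groups did not overlap, but the lowest sgCOX4I1 library, #3, was near the highest control, #3. Its log2 fold change was 0.29 (SE 0.098, adjusted p = 0.151 by edgeR). WARS2, for tryptophan, was 15.8, 14.8 and 16.6 CPM in sgCtrl libraries, against 20.3, 18.5 and 16.7 CPM in sgCOX4I1, where #3 again touched the control range (log2 fold change 0.23, SE 0.11, adjusted p = 0.324 by edgeR).

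LARS2, for leucine, was 31.2, 29.2 and 24.4 CPM in sgCtrl libraries, against 37.4, 33.3 and 28.8 CPM in sgCOX4I1, and only #3 overlapped the controls (log2 fold change 0.23, SE 0.12, adjusted p = 0.339 by edgeR). IARS2, the most abundant mitochondrial synthetase mRNA per length, was 219, 202 and 199 CPM in sgCtrl libraries, against 225, 219 and 226 CPM in sgCOX4I1 (log2 fold change 0.11, SE 0.071, adjusted p = 0.442 by edgeR). Its lowest sgCOX4I1 library and highest control were nearly equal. The remaining mitochondrial enzymes had adjusted p values of 0.446 or more by edgeR, among them SARS2 with a log2 fold change of 0.20 and an SE of 0.19 at group means of 4.91 and 5.64 CPM, where another annotated gene of the same strand covers 48.2% of its exonic bases.

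**Figure D2:**
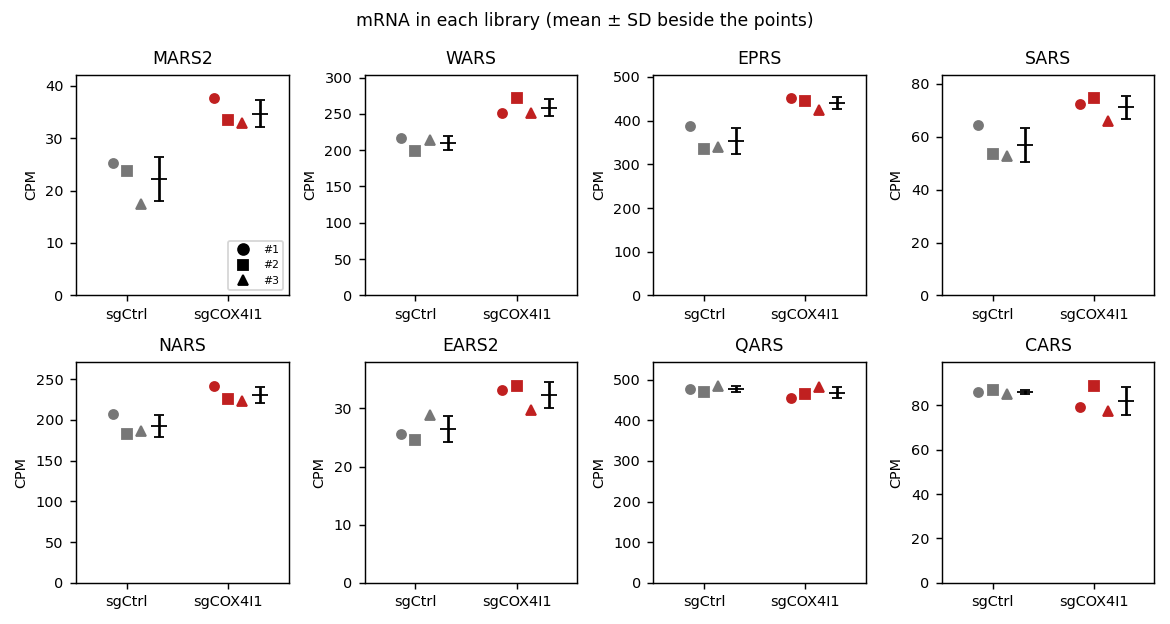
CPM (TMM-normalized, y axes starting at 0) of 8 synthetases in each sgCtrl (grey) and sgCOX4I1 (red) library, with the replicate number given by the symbol and the mean ± SD of 3 libraries beside the points. MARS2, WARS, EPRS, SARS, NARS and EARS2 show no overlap between groups, whereas QARS and CARS overlap.

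No scaffold gene was called by edgeR, DESeq2 or limma-voom, and none had an unadjusted p under 0.05 in edgeR. AIMP2, which ties the multisynthetase complex together, was 84.5, 81.1 and 84.8 CPM in sgCtrl libraries, against 93.4, 93.6 and 87.5 CPM in sgCOX4I1 without overlap (log2 fold change 0.13, SE 0.072, adjusted p = 0.370 by edgeR). EIF2AK1, on the opposite strand, covers 29.1% of the exonic bases of AIMP2, so some of these reads could belong to it. The group means of EIF2AK1 were 182 CPM in sgCtrl and 177 CPM in sgCOX4I1. AIMP1 was 93.9, 94.0 and 81.5 CPM against 96.3, 81.4 and 84.5 CPM (log2 fold change -0.038, SE 0.088). EEF1E1 was 6.43, 7.38 and 5.36 CPM against 7.71, 5.12 and 8.09 CPM (log2 fold change 0.14, SE 0.19), and a read-through transcript of the same strand covers 18.8% of its exonic bases.

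At the other end of the range stood FARS2, CARS, TARS2 and CARS2, none of which was called. FARS2 was 12.9, 12.1 and 13.0 CPM in sgCtrl libraries, against 12.9, 11.0 and 11.7 CPM in sgCOX4I1 (log2 fold change -0.09, SE 0.12). CARS was 85.8, 86.8 and 85.2 CPM against 79.2, 88.9 and 77.5 CPM (log2 fold change -0.071, SE 0.077), so that the controls were tight and the sgCOX4I1 libraries lay on both sides of them. TARS2 was 63.6, 62.1 and 52.8 CPM against 61.6, 57.3 and 52.8 CPM (log2 fold change -0.055, SE 0.092). CARS2 was 90.2, 97.4 and 90.8 CPM against 93.0, 84.9 and 92.6 CPM (log2 fold change -0.041, SE 0.075), and the groups of both genes overlapped. QARS, the glutaminyl-tRNA synthetase and among the most abundant members, was 477, 471 and 486 CPM against 456, 466 and 482 CPM (log2 fold change -0.031, SE 0.071, 95% interval -0.18 to 0.12).

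Seen library by library, the shift was small and the controls were not level. The median log2 difference of the 21 cytosolic enzymes from their sgCtrl mean was 0.089, -0.043 and -0.026 in sgCtrl #1, #2 and #3, against 0.14, 0.10 and 0.10 in sgCOX4I1 #1, #2 and #3. Thus sgCtrl #1 stood near the sgCOX4I1 libraries, with 16 of 21 cytosolic enzymes above the sgCtrl mean against 18, 17 and 17. Their summed level was 4651, 4340 and 4358 CPM in sgCtrl libraries, against 4899, 4798 and 4741 CPM in sgCOX4I1. Mitochondrial enzymes had medians of 0.0086, 0.053 and -0.051 in sgCtrl and 0.14, 0.072 and 0.083 in sgCOX4I1, and sums of 793, 788 and 754 CPM against 864, 822 and 819 CPM. Over all genes these library medians were between -0.00075 and 0.0064.

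The sgCOX4I1 #2 library, which kept most of its COX4I1 mRNA, stood differently for the enzymes of each compartment. Whether the standing of a library follows its COX4I1 mRNA or protein was not tested. Among the sgCOX4I1 libraries it was the highest for 9 of 21 cytosolic enzymes and the lowest for 5, and sgCOX4I1 #3 was the lowest for 12. For the mitochondrial enzymes sgCOX4I1 #2 had the lowest median of its group, and it was the highest for 3 of 17 and the lowest for 7, while sgCOX4I1 #1 was the highest for 12 and sgCOX4I1 #3 the lowest for 9.

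**Figure D3:**
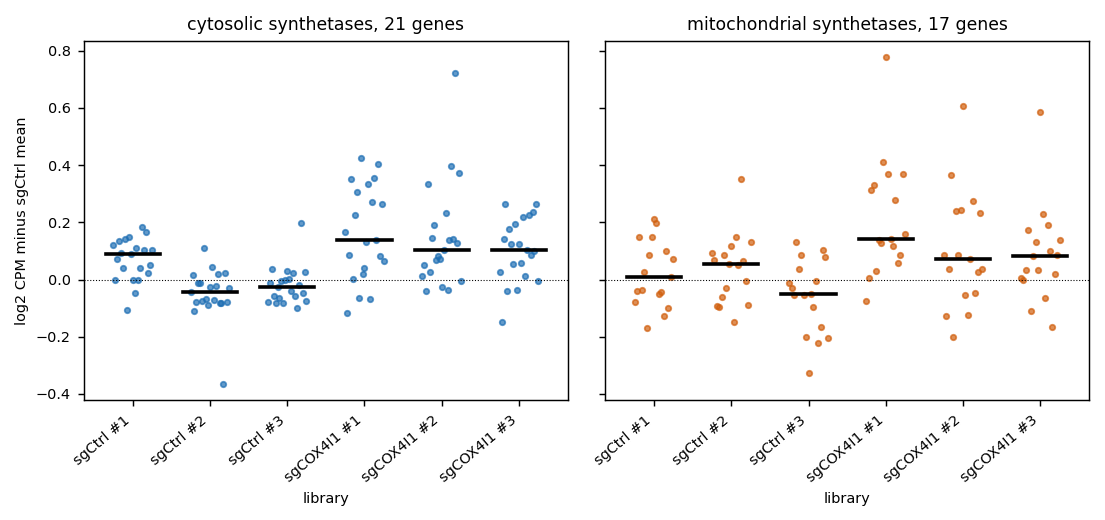
Log2 CPM of each synthetase minus its sgCtrl mean (y axis) in each library (x axis), for cytosolic enzymes on the left and mitochondrial enzymes on the right, with a bar at the median. The cytosolic median of sgCtrl #1, 0.089, lies close to the sgCOX4I1 medians of 0.10 to 0.14, and the highest point in each sgCOX4I1 library of the right panel is MARS2.

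Enzymes for the same amino acid in the cytosol and in mitochondria were set side by side in 19 pairs, with EPRS, FARS2 and TARS2 entering more than 1 pair. The cytosolic enzyme had the higher log2 fold change in 13 pairs, with a median difference of 0.062. Within libraries, the ratio of cytosolic to mitochondrial mRNA was higher in all sgCOX4I1 than in all sgCtrl libraries for FARSB over FARS2 and for EPRS over PARS2. It was lower without overlap for MARS over MARS2, whose log2 fold changes were 0.097 and 0.64. The ratio of the other 16 pairs overlapped. For single genes, all sgCOX4I1 libraries lay above all sgCtrl libraries in 11.2% of all genes and below them in 10.4%. No such share was computed for ratios, so the 2 pairs above and the 1 below, of 19, are only described. For tryptophan the log2 fold changes were 0.30 for WARS and 0.23 for WARS2, and for glutamate they were 0.31 for EPRS and 0.29 for EARS2, so that both compartments had positive values for these amino acids.

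**Figure D4:**
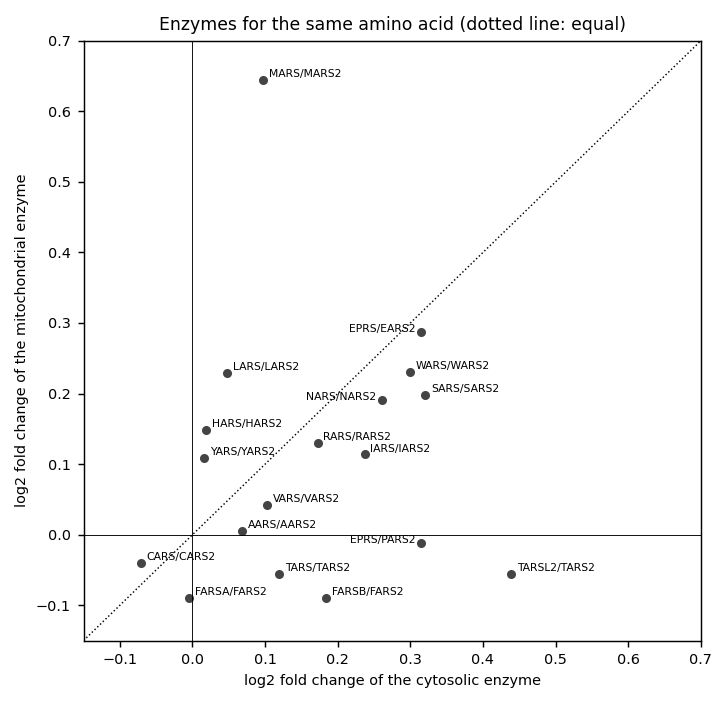
Log2 fold change of the mitochondrial enzyme (y axis) against that of the cytosolic enzyme for the same amino acid (x axis), with a point for each pair shown and a dotted line where both are equal. MARS/MARS2 lies far above the line at 0.097 and 0.64, and 13 pairs lie below it.

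Levels per length were compared in sgCtrl, as mean CPM per kb of the MANE Select transcript. Cytosolic enzymes had a median of 72.9 CPM per kb, from 0.946 for TARSL2 to 204 for FARSA. Mitochondrial enzymes had a median of 12.9 CPM per kb, from 2.55 for SARS2 to 58.5 for IARS2. The cytosolic enzyme was the more abundant in 16 of the 19 pairs, with a median ratio of 6.91. The exceptions were cysteine (CARS 31.4 and CARS2 50.5 CPM per kb), isoleucine (IARS 40.1 and IARS2 58.5) and threonine when TARSL2 was set against TARS2. MARS2, the called member, was at 7.32 CPM per kb in sgCtrl and 11.4 in sgCOX4I1, still far below MARS at 109 in sgCtrl. The scaffold genes ran from 6.10 for EEF1E1 to 69.7 for AIMP2.

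**Figure D5:**
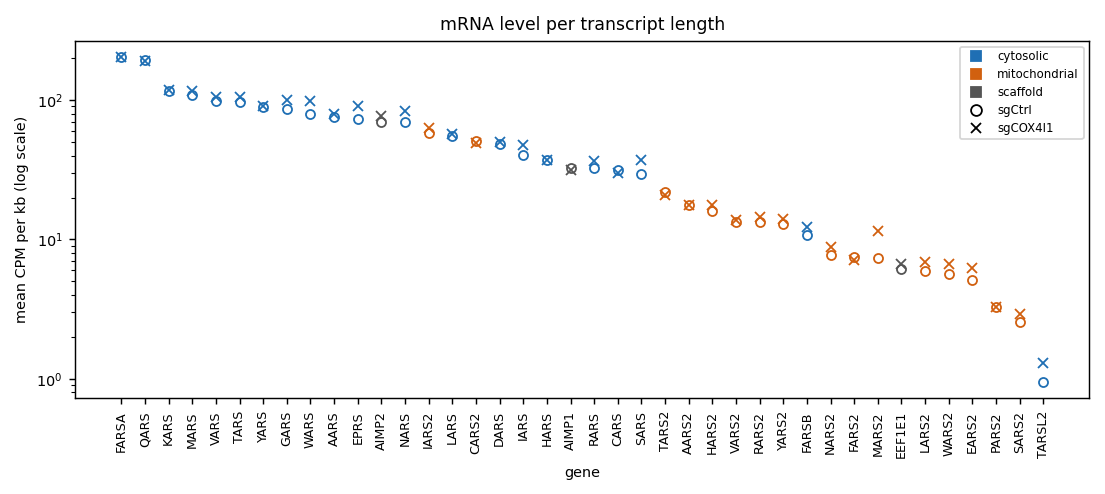
Mean CPM per kb of transcript (y axis, log scale) of synthetase and scaffold genes in sgCtrl (circles) and sgCOX4I1 (crosses), ordered by the sgCtrl level and coloured by compartment. Cytosolic enzymes fill most of the left side and mitochondrial enzymes most of the right, and the crosses of MARS2 and TARSL2 stand clearest above their circles.

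The promoter core and the size of the difference were then compared among the cytosolic enzymes. The 7 with the core had a median log2 fold change of 0.12, with 6 above 0 and 2 without overlap between groups. The 9 with a matched window and no core had a median of 0.17, with 7 above 0 and 5 without overlap. In all those without overlap the sgCOX4I1 libraries lay above, as they did for 11.2% of all genes. WARS, EPRS and SARS, which had the smallest adjusted p among cytosolic enzymes, had no core in these windows, and MARS2 and EARS2 had none either, while NARS, IARS and GARS did. The absence of these letters from a window of this length says nothing about elements elsewhere in the gene.

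Genes of related processes were read from lists of general knowledge in the same fit. The lists were chosen with earlier results of these data known, so their counts describe them and are not independent support. In the list of 22 ATF4 amino acid response genes, 11 were called, all higher, against 1.06% of all genes called higher, and the median log2 fold change was 0.40. CHAC1, which breaks down glutathione, had a mean of 3.06 ± 0.271 CPM in sgCtrl and rose to 8.65 ± 0.343 CPM in sgCOX4I1 (SD, n = 3). PSAT1, of serine synthesis, rose from 97.4 ± 12.5 to 161 ± 21.6 CPM, and the cystine carrier SLC7A11 rose from 40.2 ± 9.80 to 81.8 ± 13.6 CPM. ATF4 mRNA itself was 583 ± 62.2 and 582 ± 39.2 CPM. ASNS, which makes asparagine, had a log2 fold change of 0.36 (SE 0.10, adjusted p = 0.0894 by edgeR). Cytosolic synthetases had a median of 0.10 beside the 0.40 of this list, which holds no synthetase, and the lists were not tested against each other.

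Over all genes, 17.3% had an unadjusted p under 0.05 in edgeR, and 8.9% had it with a higher level. Sensors of uncharged tRNA and eIF2 factors had a median log2 fold change of 0.059, with 12 of 16 above 0. None was called by edgeR, DESeq2 or limma-voom, and 3 (18.8%) had an unadjusted p under 0.05 in edgeR, all higher. Partners of tRNA charging, such as amidotransferase subunits, editing enzymes and the tRNA exporter XPOT, had a median of -0.0056, with 7 of 15 above 0. None was called by these tools, and 2 (13.3%) had an unadjusted p under 0.05 in edgeR, both higher. XPOT, which carries tRNA out of the nucleus, was 376 ± 22.0 and 431 ± 21.5 CPM without overlap (log2 fold change 0.20, SE 0.077, adjusted p = 0.200 by edgeR). Mitochondrial tRNA maturation genes had a median of 0.037, with 10 of 14 above 0, none called by edgeR and 1 (7.14%) with an unadjusted p under 0.05. That gene, called by both DESeq2 and limma-voom, was MTO1, which modifies the wobble base of mitochondrial tRNAs, at 55.5 ± 5.22 and 70.2 ± 0.564 CPM (log2 fold change 0.34, SE 0.082, adjusted p = 0.0504 by edgeR). Of 9 elongation factors tested, with a median of 0.00024, only EEF1A2 was called (11.1%), where 2.08% of all genes were called and 1.02% were called lower. EEF1A2 fell from 11.7 ± 0.917 to 6.76 ± 0.914 CPM (log2 fold change -0.80, adjusted p = 0.0154 by edgeR). In edgeR, 2 (22.2%) had an unadjusted p under 0.05, EEF1A2 and GFM1, and GFM1 was higher.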

How the data were processed

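RNA was sequenced from 6 libraries of Molm13-Cas9+ cells with directional library preparation. The authors deposited 1 table of raw counts, whole numbers that were not normalized, for 19845 gene symbols, and all sample columns were used. The methods describe Trimmomatic, Bowtie2 and RSEM, whereas the column names point to STAR, marked duplicates and HTSeq, and the submitters' processing notes name STAR 2.6.0a, bcl2fastq 2.20.0.422, edgeR and GRCh38. The gene annotation and the strand setting of the counting are not given in the sources used here. Columns were matched to samples by group letter and guide number. Libraries within a group were further apart than sampling noise (chi-square over its degrees of freedom was 11.0 to 27.6), so none was counted as a copy.

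Differential expression between the groups was computed in R 4.3.3 with the quasi-likelihood test of edgeR 4.0.16, after TMM normalization and filterByExpr, in a single fit of the 6 libraries with group as its term. P values of the 11861 genes tested were adjusted by Benjamini-Hochberg, and called means an adjusted p under 0.05. The SE was the log2 fold change divided by the root of F, and library values on the log2 scale used a prior count of 2. At these depths a count of 0 allows up to 0.0972 to 0.174 CPM, from counting error only. Sample titles only number the libraries of a group, and the paper describes independent guide sequences for each group. Separate cultures are not named, so p values measure the spread between these libraries.

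Alternatives were DESeq2 1.42.0, limma-voom with limma 3.58.1, a 2-fold threshold, scaling without TMM, no low-count filter, a stricter filter of at least 10 counts per library, the replicate number as a block, and each library left out in turn. Counts of groups without overlap with each library left out were added after seeing the data. The fits were tested on simulated data. The members and lists were chosen with earlier results of these data known. Library values are given for called members, the 12 cytosolic and 5 mitochondrial members with the smallest adjusted p, the 4 lowest log2 fold changes, the scaffold genes, GARS, KARS and COX4I1, and other lists were limited to 5 genes each. QARS, FARSA and SARS2 were named after their values were seen. Positions and MANE Select lengths came from GENCODE 44 on GRCh38, and promoter windows from RefSeq on GRCh38.p14. Protein sequences were not analysed here. The values of 1 member are not reported here, and it is included in the counts and medians.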

Additional observations from a re-analysis of the deposited data

How the results depend on the processing

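The count of called synthetase and scaffold genes rested on the settings more than the values did. Against 1 called member and 2.08% of all genes, edgeR with a 2-fold threshold called 0 (0.202% of all genes), limma-voom 3 (2.12%), DESeq2 5 (3.93%), edgeR without TMM 3 (2.01%), without a filter 4 (3.54%) and with at least 10 counts in every library 2 (2.29%). All members called in these alternatives were higher in sgCOX4I1. WARS was called in 7 of 12 alternatives, EPRS in 6, SARS in 4, NARS in 3 and MARS2 in 10. With each library left out in turn, 0 to 5 members were called, with none without sgCtrl #2 (0.200% of all genes) or without sgCOX4I1 #2 (0.425%) and 5 without sgCtrl #1 (4.66%). Over all genes the count was 24 with the 2-fold threshold, 466 with DESeq2, of which 241 were among the 247, and 537 without a filter. It ranged from 24 without sgCtrl #2 to 561 without sgCtrl #1 when single libraries were left out. The cause of these differences was not tested.

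With the replicate number as a block, 8 members and 1408 genes (11.9%) were called, and COX4I1 had a log2 fold change of -1.39. The members gained were EPRS, FARSB, GARS, IARS, NARS, SARS and WARS. The deviations of libraries with the same number correlated at 0.38, -0.024 and 0.29 for #1, #2 and #3. Across numbers, the correlation was -0.38 for sgCtrl #3 with sgCOX4I1 #1 and -0.32 for sgCtrl #1 with sgCOX4I1 #3. The other pairs of unlike number ran from -0.10 to 0.13, and sgCtrl #2 correlated more with sgCOX4I1 #3 (0.064) than with sgCOX4I1 #2. The correlation by number was thus positive for #1 and #3 and not for #2. Deviations were taken from the mean of each group and sum to 0 within it. These correlations therefore depend on each other and are not separate evidence for #1 and for #3. The main fit had no block, so its calls take no account of any deviations shared by number.

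COX4I1 had a log2 fold change of -1.20 without a filter and -1.40 with limma-voom, both past the threshold, and of -1.20 with DESeq2, which was not (adjusted p = 0.234). With single libraries left out it was -1.89 to -0.95, with adjusted p from 3.37e-06 without sgCOX4I1 #2 to 0.272 without sgCtrl #2 by edgeR. The median log2 fold change stayed between 0.099 and 0.13 for cytosolic and between 0.098 and 0.14 for mitochondrial enzymes under every alternative. Without TMM, FARSA turned to 0.0085 and PARS2 to 0.00067. With single libraries left out, members near 0 changed sign. Their log2 fold changes ranged from -0.034 to 0.053 for AARS2, -0.11 to 0.0096 for AIMP1, -0.061 to 0.00057 for CARS2, -0.044 to 0.043 for FARSA, -0.034 to 0.076 for HARS, -0.026 to 0.060 for KARS, -0.093 to 0.066 for PARS2, -0.13 to 0.0017 for TARS2, -0.0068 to 0.098 for VARS2 and -0.019 to 0.069 for YARS. Members whose sgCOX4I1 libraries all lay above sgCtrl numbered 15 to 21 of 41 with single libraries left out, against 14.3% to 19.0% of all genes, and those below 0 to 1, against 13.9% to 19.0%. The count above was 21 without sgCtrl #1 (19.0% of all genes), 21 without sgCOX4I1 #2 (15.6%) and 15 without sgCOX4I1 #1 (17.1%).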

Other observations

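Several synthetase genes lie close to other genes, and the neighbours were read in the same fit. ARHGAP9, a GTPase-activating protein gene that overlaps MARS on the opposite strand, was 216 ± 10.3 CPM in sgCtrl and 179 ± 2.49 CPM in sgCOX4I1 (SD, n = 3 libraries each), without overlap. Its log2 fold change was -0.27 (SE 0.07, Benjamini-Hochberg adjusted p = 0.0621 by the quasi-likelihood test of edgeR), against 0.097 for MARS. Genes that start next to a synthetase on the other strand had log2 fold changes of 0.23 for ORC3 beside RARS2, 0.16 for MRPS12 beside SARS2, -0.02 for PMS2 beside AIMP2 and -0.067 for LYRM4 beside FARS2, and none of them was called. HARS and HARS2 overlap on opposite strands in 8.46% of the exonic bases of HARS together with WDR55, and VARS2 shares 63.0% of its exonic bases with another annotated gene of the same strand, so the reads of these genes are uncertain.

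Among tested genes whose symbol in the counts was also that of a promoter window, 245 held the core TGATGNAA and 9006 did not. Genes counted under an older symbol were not matched and are left out. Those with the core had a median log2 fold change of 0.051 and those without it -0.0035. Of the former, 12 were called higher (4.90%) and of the latter 81 (0.899%), and the sgCOX4I1 libraries all lay above sgCtrl for 18.4% and 11.0%. The genes with the core include members of the ATF4 list. They do not include the cytosolic synthetases with the core described above, whose older symbols were not matched. The shares were not tested.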
